A study of Mus musculus with 12 samples.

Results

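The pigment switching and melanocyte niche ligand genes were a set of 7 genes chosen by name: Asip, Corin, Mc1r, Atrn, Kitl, Edn1 and Edn3. All 7 were found among the 24692 gene entries of the deposited expression table, 6 by symbol and Asip by its Entrez identifier, because the table lists agouti under its older mouse symbol a. They were measured in 12 RNA sequencing libraries of cells sorted from mouse back skin, 3 libraries for each of 4 populations: hair follicle dermal stem cells, dermal papilla, dermal sheath and interfollicular dermis. All 4 populations came from male mice on postnatal day 26 to 27, with follicles labelled as early anagen, the start of a new hair growth phase. Every mouse carried the Sox2:GFP and aSMA:dsRed transgenes, a green reporter driven by Sox2 and a red reporter driven by smooth muscle actin, and cells were sorted after digestion with dispase and collagenase and staining with antibodies whose targets are not named. The labels give neither the coat colour nor the agouti genotype of the mice, and do not say whether each library came from its own animals. P-values therefore set differences of population means against the spread between libraries of the same population, pooled over the 4 populations. That spread may be technical.

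Hair colour is set by signals that pass from the dermal papilla, the cluster of mesenchymal cells at the follicle base, to melanocytes in the epithelium around it. Mc1r is the melanocortin receptor of melanocytes, which drives black pigment (eumelanin); agouti, the product of Asip, is a secreted antagonist of Mc1r that switches melanocytes to yellow pigment (pheomelanin). Corin is a transmembrane serine protease of the papilla known to limit agouti action, and Atrn (attractin) is a transmembrane protein that agouti needs for its effect. Kitl, also called stem cell factor, binds the receptor Kit and keeps melanocytes alive and migrating. Edn1 and Edn3 are endothelin peptides, of which Edn3 is the main endothelin for melanoblasts through the receptor Ednrb.

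Promoters are shown for the 3 members whose levels separated the populations most clearly below, Corin, Edn3 and Mc1r. Each run is the 250 bases before the RefSeq transcription start in GRCm38.p6, written 5′ to 3′ on the strand of the gene. Corin lies on the minus strand (chr5:72504541-72504790), Edn3 on the plus strand (chr2:174760369-174760618) and Mc1r on the plus strand (chr8:123406832-123407081). Capitals mark matches, on either strand, to an E-box (CANNTG), a TCF/LEF core (CAAAG) or a CCAAT box (CCAAT).
Corin: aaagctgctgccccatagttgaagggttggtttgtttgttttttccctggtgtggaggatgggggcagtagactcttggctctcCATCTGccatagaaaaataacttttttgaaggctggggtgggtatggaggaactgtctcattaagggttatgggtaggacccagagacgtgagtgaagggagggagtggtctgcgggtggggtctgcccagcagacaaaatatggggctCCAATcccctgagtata
Edn3: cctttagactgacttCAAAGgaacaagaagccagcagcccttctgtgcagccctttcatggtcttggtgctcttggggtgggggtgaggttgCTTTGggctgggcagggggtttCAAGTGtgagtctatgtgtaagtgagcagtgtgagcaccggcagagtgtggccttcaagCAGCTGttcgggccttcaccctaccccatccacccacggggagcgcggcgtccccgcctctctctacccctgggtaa
Mc1r: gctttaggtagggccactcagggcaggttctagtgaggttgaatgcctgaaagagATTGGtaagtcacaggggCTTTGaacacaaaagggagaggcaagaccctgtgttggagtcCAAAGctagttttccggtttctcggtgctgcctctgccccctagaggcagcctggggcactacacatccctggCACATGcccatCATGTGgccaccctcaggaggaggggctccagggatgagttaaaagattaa
The Corin window held 1 E-box at -166 and 1 CCAAT box at -17, counted from the transcription start. The Edn3 window held 2 TCF/LEF cores, at -235 and -158, and 2 E-boxes, at -136 and -77. The Mc1r window held a pair of E-boxes close to the start, at -62 and -51, besides 2 TCF/LEF cores at -177 and -135 and a CCAAT box at -195. Such short motifs are common: of 32851 promoter windows of this length, 66.2% held an E-box, 48.6% a TCF/LEF core and 33.8% a CCAAT box. These matches describe letters and not bound sites.

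The whole genes lie in GRCm38.p6 at chr2:154950599-155051012 for Asip, chr5:72299948-72504540 for Corin, chr8:123407082-123410744 for Mc1r, chr2:130906430-131030333 for Atrn, chr10:100015615-100100416 for Kitl, chr13:42301476-42307990 for Edn1 and chr2:174760619-174784042 for Edn3. In the GENCODE annotation the spans of Asip, Corin, Mc1r, Atrn and Edn1 overlap other gene models, while those of Kitl and Edn3 overlap none. The RefSeq span of Asip holds the protein-coding gene model Gm14226 on the same strand, and its longer GENCODE span also reaches Raly and Eif2s2. Corin shares its span with the antisense gene Gm20647, Mc1r with the long locus Gm20388 on the same strand, Atrn with the pseudogene Gm14049, and Edn1 with the antisense gene Gm47118. These are overlaps of whole gene spans and not of exons. The sources used here do not say whether reads were assigned by strand, so where exons do overlap, reads of a gene and its partner cannot be told apart.

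Marker genes were read before the members. Dermal fibroblast markers (10 genes, among them Col1a1 and Pdgfra) summed to 9382 to 11910 FPKM (a level per length of transcript and per depth of library) in the dermal stem cell libraries and 13677 to 24488 in the papilla libraries, but only to 975 to 1925 under the dermal sheath label and 816 to 1546 under the interfollicular dermis label. Sheath markers (9 genes led by Acta2) summed to 1762 to 1902 in the dermal stem cells and 122 to 347 under the dermal sheath label. Keratinocyte markers (10 genes) summed to 3349, 3379 and 1142 FPKM in papilla 1, 2 and 4, 636 to 1221 in dermal stem cells, 1104 to 1243 under the dermal sheath label and 1110 to 1636 under the interfollicular dermis label. Genes within that list went different ways: Trp63, a factor of basal keratinocytes, averaged 121 and 89.0 FPKM under the sheath and interfollicular labels and 16.1 in papilla, whereas Krt10, a keratin of differentiating keratinocytes, averaged 53.4 and 167 under those labels and 1528 in papilla. The populations labelled dermal sheath and interfollicular dermis go against their labels in the summed fibroblast markers, and the former also in the sheath markers. They are called the sheath-labelled and interfollicular-labelled libraries below. Of the fibroblast list, Dpp4 went the other way, with means of 14.6 FPKM in sheath-labelled libraries and 3.15 in dermal stem cells. The other 9 were higher in dermal stem cells than in sheath-labelled libraries. Melanocyte markers (13 genes, among them Dct and Tyrp1) summed to 249 to 1008 FPKM in papilla and 216 to 1180 in the interfollicular-labelled libraries, against 24.5 to 110 in dermal stem cells and 15.4 to 26.0 in the sheath-labelled libraries, where Pmel was listed at 0 in all 3. The papilla libraries differed among themselves: papilla markers (15 genes) summed to 446, 831 and 2636 in replicates 1, 2 and 4. Sox2 followed the papilla markers, with 0.882, 2.66 and 7.17 FPKM in papilla replicates 1, 2 and 4.

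Among the members, Corin and Edn3 were high in the papilla and, for Corin, in the dermal stem cells, Mc1r was high in papilla and interfollicular-labelled libraries, and Kitl was highest in the interfollicular-labelled libraries. Asip and Edn1 varied widely between libraries of the same population, and Atrn was nearly level. Differences were tested with limma on log2(FPKM + 1), so each log2 difference is on that scale and understates the change of low genes; the adjusted p is a Benjamini-Hochberg value over the 12774 genes tested and a difference was called when it was under 0.05. By the F test across the 4 populations, Corin (adjusted p = 4.16e-05), Mc1r (adjusted p = 0.000156), Edn3 (adjusted p = 0.00248) and Kitl (adjusted p = 0.0162) passed, 4 of 7 members against 56.8% of all genes tested, which is close to the background. Asip (adjusted p = 0.200), Edn1 (adjusted p = 0.418) and Atrn (adjusted p = 0.673) did not pass. In bulk RNA of this kind, fewer cells of a type and less RNA per cell cannot be told apart.

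The pairwise comparisons divided the members as follows. In papilla against dermal stem cells, Mc1r alone was called, higher in papilla, where 2.31% of all genes were called higher and 6.38% lower. In papilla against the sheath-labelled libraries, Corin, Edn3 and Mc1r were called higher, beside 16.4% of all genes called higher and 33.4% lower. Against the interfollicular-labelled libraries, Corin and Edn3 were called higher in papilla and Kitl lower, beside 13.7% of all genes higher and 28.6% lower. Those 3 comparisons share the papilla libraries, and the next 2 share the dermal stem cell libraries. Dermal stem cells exceeded the sheath-labelled libraries in Corin and Edn3, beside 19.6% of all genes higher and 24.3% lower. They exceeded the interfollicular-labelled libraries in Corin and were below them in Kitl and Mc1r, beside 17.9% of all genes higher and 19.7% lower. Between the sheath-labelled and interfollicular-labelled libraries, Mc1r alone was called, lower in the former, where 0.939% of all genes were called higher and 1.32% lower. With the replicate block Mc1r was not called there (adjusted p = 0.215), and 7 genes in all were called in place of 289. Sheath-labelled and interfollicular-labelled libraries share no replicate number, so the block compares them only through papilla and dermal stem cells. Libraries whose number occurs only once then add nothing, so the block cannot decide that call. The median log2 difference of the 7 members was 1.18 for papilla minus dermal stem cells, against -0.25 over all genes tested, and 1.72 for papilla minus sheath-labelled, against -0.36. With 7 genes a median is the value of 1 gene, here Edn1, which was not called, and Mc1r. The members' median was 0.07 for papilla minus interfollicular-labelled (all genes -0.32), 0.03 for dermal stem cells minus sheath-labelled (all genes -0.13), -0.47 for dermal stem cells minus interfollicular-labelled (all genes -0.14) and -0.87 for sheath-labelled minus interfollicular-labelled (all genes 0.05). The split of all calls into higher and lower moved with the scaling: with median-of-ratios scaling 47.3% of calls in papilla against dermal stem cells were higher, and with quantile normalization 51.4%, in place of 26.6%. For papilla the share called higher moved likewise under median-of-ratios scaling from 32.9% to 52.1% against the sheath-labelled and from 32.3% to 53.0% against the interfollicular-labelled libraries, and for dermal stem cells against the sheath-labelled libraries it moved from 44.6% to 55.3%.

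**Figure D1:**
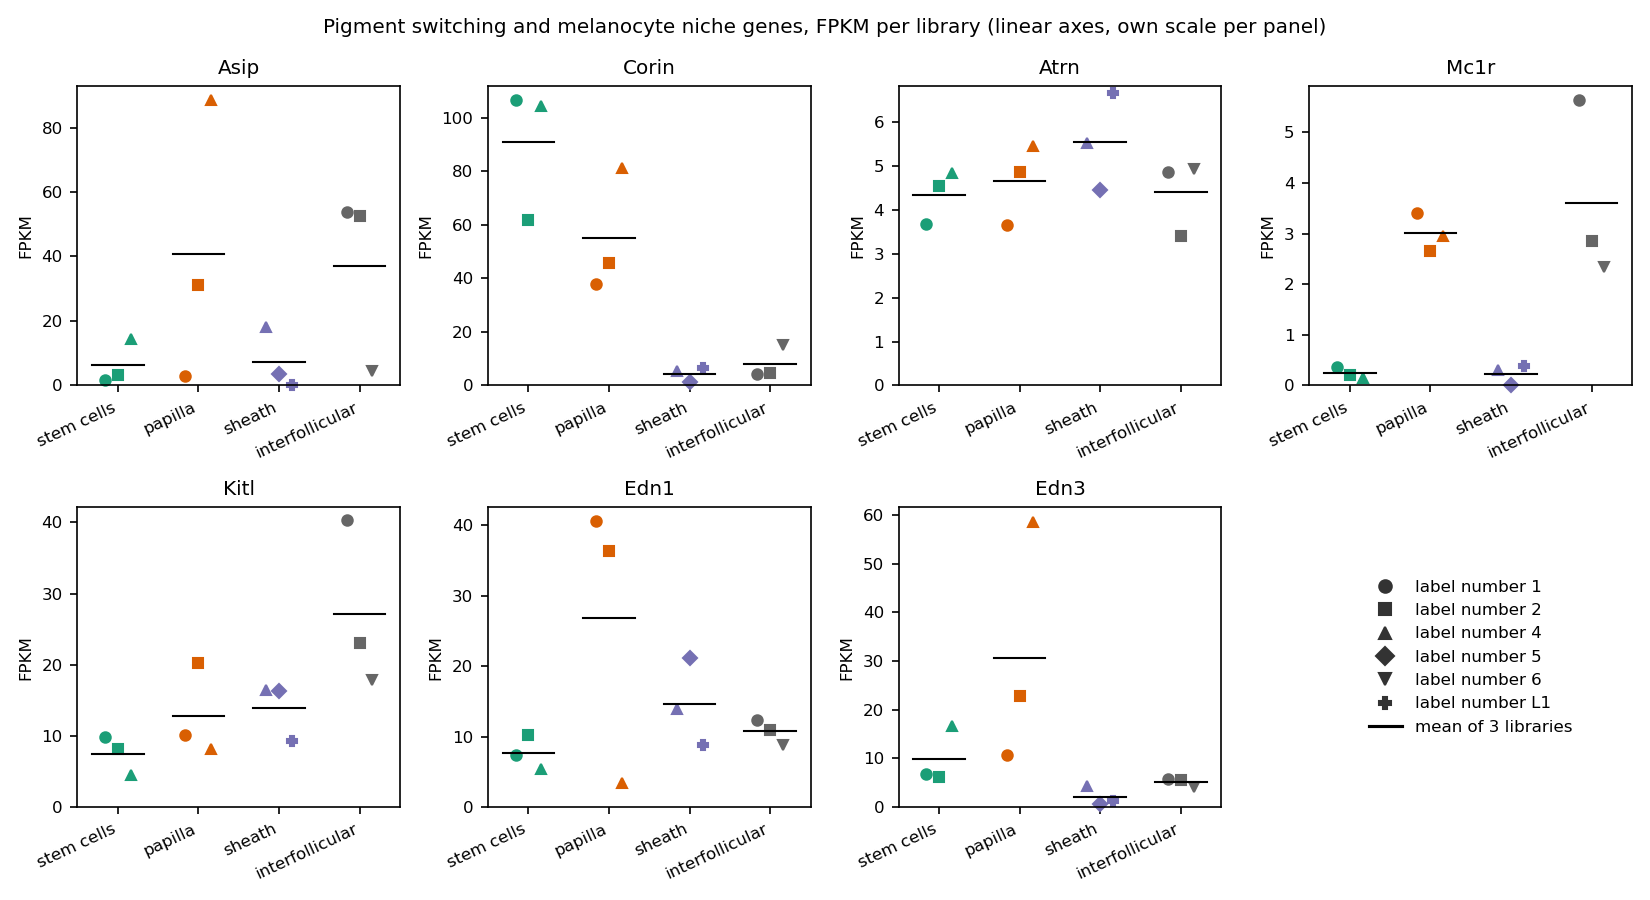
FPKM of the 7 members in each library on linear axes that start at 0, 1 panel per gene with its own scale, with the 4 populations along the horizontal axis, points for libraries (shaped by replicate number) and a bar for the mean of 3 libraries. Corin separates papilla and dermal stem cells (37.7 to 107) from the other libraries (1.39 to 15.0), while Asip spans 3.05 to 88.5 within the papilla alone.

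Corin, the protease that limits agouti action, was strongly expressed in both follicle mesenchyme populations that carried fibroblast markers. It stood at 107, 61.9 and 104 FPKM in dermal stem cells 1, 2 and 4, at 37.7, 45.6 and 81.3 in papilla 1, 2 and 4, at 5.39, 1.39 and 6.51 in sheath-labelled 4, 5 and L1, and at 4.35, 4.73 and 15.0 in interfollicular-labelled 1, 2 and 6. All 6 papilla and dermal stem cell libraries lay above all 6 others. The order of the means was dermal stem cells (90.9 ± 25.1, SD, n = 3), papilla (54.9 ± 23.2), interfollicular-labelled (8.03 ± 6.05) and sheath-labelled libraries (4.43 ± 2.69). The log2 difference of papilla was 3.45 (SE 0.50, adjusted p = 0.00015) from the sheath-labelled and 2.75 (SE 0.50, adjusted p = 0.00101) from the interfollicular-labelled libraries. Dermal stem cells differed by 4.20 (SE 0.50, adjusted p = 4.08e-05) and 3.50 (SE 0.50, adjusted p = 0.000193) from the same libraries. Papilla and dermal stem cells, neighbours in this order, did not differ beyond their spread, nor did the sheath-labelled and interfollicular-labelled libraries: papilla minus dermal stem cells was -0.75 (95% interval -1.83 to 0.32, adjusted p = 0.365), and sheath-labelled minus interfollicular-labelled was -0.70 (95% interval -1.77 to 0.38, adjusted p = 0.563). In the libraries with the same number, papilla stood at 0.354, 0.736 and 0.779 times the dermal stem cell level, below it in 3 of 3 pairs. The summed fibroblast markers were at most 1925 FPKM in the 6 libraries where Corin was low and at least 9382 in the others. Between papilla and dermal stem cells their order was opposite to that of the Corin means, with sums of 13677 to 24488 and 9382 to 11910 FPKM. Their part in the Corin differences was not tested.

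Asip, the agouti ligand, was listed above 0 in every library but was the most variable member. In papilla replicates 1, 2 and 4 it stood at 3.05, 31.0 and 88.5 FPKM, a 29.0-fold range from lowest to highest. It stood at 1.61, 3.35 and 14.3 in dermal stem cells 1, 2 and 4, at 18.0, 3.69 and 0.0882 in sheath-labelled 4, 5 and L1, and at 53.8, 52.6 and 4.34 in interfollicular-labelled 1, 2 and 6. The libraries of any pair of populations overlapped, and interfollicular-labelled replicate 6 lay 12.4-fold below the highest library of its population. Means ran from papilla (40.8 ± 43.5, SD, n = 3) and interfollicular-labelled (36.9 ± 28.2) to sheath-labelled (7.26 ± 9.47) and dermal stem cells (6.44 ± 6.91), and no neighbours in that order differed beyond their spread. Papilla minus dermal stem cells was 2.02 on the log2 scale (95% interval -0.72 to 4.76, adjusted p = 0.342), an interval that holds both no difference and a large one. Without papilla replicate 1, papilla was called higher than the sheath-labelled libraries (3.54, adjusted p = 0.0368).

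Replicate numbers 1, 2 and 4 occur in both papilla and dermal stem cells, and libraries with the same number deviated together from their population means across genes. Sheath-labelled L1 and interfollicular-labelled 6 did so more strongly without a shared number (correlation 0.445), so the pairing is uncertain. Within numbers 1, 2 and 4, Asip was higher in papilla in 3 of 3 pairs, by 1.89, 9.27 and 6.17 times. With the number as a block over all 12 libraries, the Asip difference of 2.02 was called (adjusted p = 0.0404), as was that of Edn3, 1.36 (adjusted p = 0.0257), so 3 of 7 members were called in place of 1. With papilla and dermal stem cells alone in the blocked fit, the adjusted p was 0.0317 for Asip and 0.0285 for Edn3, again 3 of 7 members called. The shares of all genes called in these blocked fits are not given here, so those counts have no background beside them. Within the papilla, the Asip values of replicates 1, 2 and 4 had the same order as the summed papilla markers (446, 831 and 2636 FPKM) and the reverse order of the summed melanocyte markers (1008, 703 and 249 FPKM). With 3 libraries that order is a description, and its part in the differences was not tested.

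Atrn, the attractin receptor protein, hardly varied. Its lowest and highest values over the 12 libraries were 3.40 FPKM in interfollicular-labelled replicate 2 and 6.66 in sheath-labelled replicate L1. Means were 4.35 ± 0.609 in dermal stem cells, 4.65 ± 0.915 in papilla, 5.55 ± 1.10 in sheath-labelled and 4.40 ± 0.862 in interfollicular-labelled libraries (SD, n = 3 each). The populations overlapped throughout. Papilla minus dermal stem cells was 0.07 on the log2 scale (95% interval -0.46 to 0.61, adjusted p = 0.888), and no other difference of Atrn passed in any comparison.

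Mc1r, the receptor on which agouti acts, was low in every library but separated the populations into a clear pair of levels. It stood at 3.41, 2.65 and 2.95 FPKM in papilla 1, 2 and 4 and at 5.64, 2.86 and 2.34 in interfollicular-labelled 1, 2 and 6. It stood at 0.359, 0.215 and 0.149 in dermal stem cells 1, 2 and 4, and at 0.302, 0 and 0.375 in sheath-labelled 4, 5 and L1, replicate 5 being listed at 0. The first 6 libraries did not overlap the last 6. The papilla exceeded dermal stem cells by 1.69 (SE 0.29, adjusted p = 0.00442) and the sheath-labelled libraries by 1.72 (SE 0.29, adjusted p = 0.000498) on the log2(FPKM + 1) scale. Against the interfollicular-labelled libraries Mc1r was lower by a log2 difference of -1.83 in dermal stem cells (SE 0.29, adjusted p = 0.000475). In sheath-labelled libraries that difference was -1.86 (SE 0.29, adjusted p = 0.00648). The latter call was lost with the replicate block (-1.87, adjusted p = 0.215). The block cannot decide it, because sheath-labelled and interfollicular-labelled libraries share no replicate number. Papilla and interfollicular-labelled means, 3.01 ± 0.381 and 3.61 ± 1.77 (SD, n = 3), differed by less than their spread (log2 difference -0.14, 95% interval -0.78 to 0.50, adjusted p = 0.719), as did those of dermal stem cells and sheath-labelled libraries, 0.241 ± 0.107 and 0.226 ± 0.199 (adjusted p = 0.949). In pairs with the same number, papilla exceeded dermal stem cells by 9.51, 12.4 and 19.8 times in FPKM, so the pseudocount of 1 compresses the difference, which was 3.23 on the log2 scale with a pseudocount of 0.1.

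In their means, the melanocyte markers other than Mitf moved with Mc1r. Of the 13, 7 were called higher in papilla than in dermal stem cells and 12 higher than in the sheath-labelled libraries, beside 2.31% and 16.4% of all genes. Called lower than in the interfollicular-labelled libraries were 10 in dermal stem cells and 8 in sheath-labelled libraries, beside 19.7% and 1.32%. Mitf averaged 4.99 FPKM in dermal stem cells, 4.92 in papilla, 3.29 in interfollicular-labelled and 2.07 in sheath-labelled libraries (F test, adjusted p = 0.140). The summed level of the 13 was at least 216 FPKM in every library where Mc1r was high and at most 110 in every library where Mc1r was low. Within the papilla they parted: the sum fell from 1008 to 249 FPKM between replicates 1 and 4, while Mc1r stood at 3.41 and 2.95. The part of melanocyte RNA in the Mc1r differences was not tested.

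**Figure D2:**
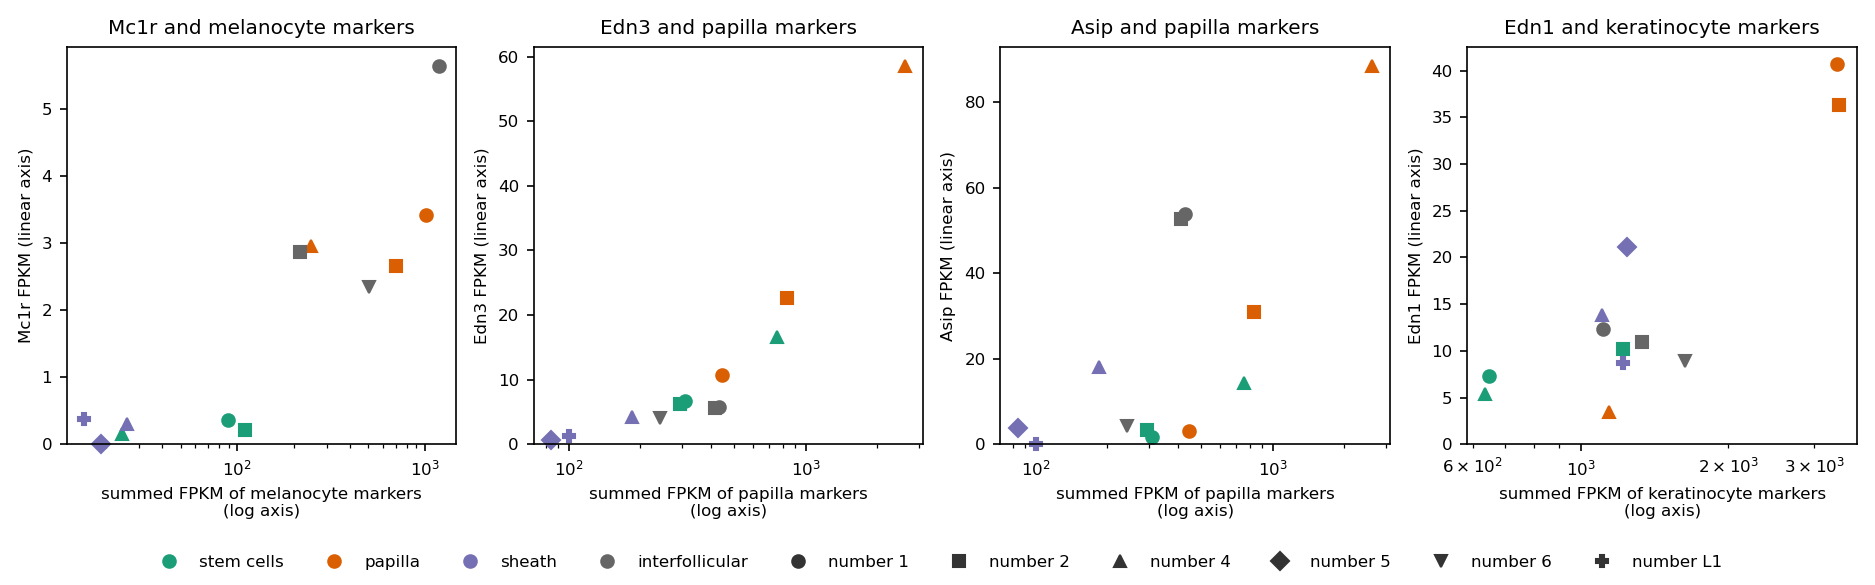
FPKM of Mc1r, Edn3, Asip and Edn1 (linear vertical axes) plotted against the summed FPKM of melanocyte, papilla, papilla and keratinocyte markers (log horizontal axes) in each of the 12 libraries, points coloured by population and shaped by replicate number. The 6 libraries with Mc1r at 2.34 FPKM or more are those with melanocyte marker sums of 216 or more, and papilla replicate 4 is highest in Edn3 (58.6) and Asip (88.5).

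Edn3, the endothelin of melanoblasts, was highest in papilla. It stood at 10.7, 22.7 and 58.6 FPKM in papilla 1, 2 and 4, at 6.69, 6.16 and 16.6 in dermal stem cells 1, 2 and 4, at 5.73, 5.54 and 4.09 in interfollicular-labelled 1, 2 and 6, and at 4.20, 0.572 and 1.29 in sheath-labelled 4, 5 and L1. Papilla and dermal stem cell libraries overlapped only through papilla replicate 1 and dermal stem cell replicate 4, and all papilla libraries lay above all sheath-labelled and interfollicular-labelled ones. Means were 30.7 ± 24.9 in papilla, 9.83 ± 5.90 in dermal stem cells, 5.12 ± 0.899 in interfollicular-labelled and 2.02 ± 1.92 in sheath-labelled libraries (SD, n = 3 each). The log2 difference of papilla was 3.26 from the sheath-labelled (SE 0.57, adjusted p = 0.000561) and 2.07 from the interfollicular-labelled libraries (SE 0.57, adjusted p = 0.0115). From dermal stem cells it was 1.36 (95% interval 0.13 to 2.60, adjusted p = 0.157), called only with the replicate block given above or without papilla replicates 1 and 2, and papilla was higher in 3 of 3 same-number pairs, by 1.60, 3.68 and 3.52 times. Dermal stem cells exceeded the sheath-labelled libraries by 1.90 (SE 0.57, adjusted p = 0.0168), a call that was lost without dermal stem cell replicate 4 (1.48, adjusted p = 0.0689) or without sheath-labelled replicate 5 (1.52, adjusted p = 0.0733). Between dermal stem cells and interfollicular-labelled libraries the values did not overlap, yet the difference of 0.71 was not called (95% interval -0.53 to 1.94, adjusted p = 0.352). Within each population Edn3 and the papilla marker sum had the same order over the libraries. In dermal stem cell replicate 4, for example, the sum was 754 FPKM, against 309 and 295 in replicates 1 and 2. Between populations they parted: interfollicular-labelled 1 and 2 had sums of 429 and 412 FPKM, above those 309 and 295, with lower Edn3. Of the 15 papilla markers, 10 were called higher and 1 lower in papilla than in interfollicular-labelled libraries, beside 13.7% and 28.6% of all genes. The lower one was Lef1, with means of 19.4 and 87.0 FPKM. The part of papilla cell content in the Edn3 differences was not tested.

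Edn1, the endothelin known first from blood vessels and also made by keratinocytes, split the papilla libraries. It stood at 40.7 and 36.4 FPKM in papilla replicates 1 and 2 and at 3.43 in replicate 4, an 11.9-fold range in which replicate 4 was the lowest of all 12 libraries. Elsewhere it stood at 7.31, 10.2 and 5.34 in dermal stem cells 1, 2 and 4, at 13.8, 21.1 and 8.74 in sheath-labelled 4, 5 and L1, and at 12.4, 10.97 and 8.86 in interfollicular-labelled 1, 2 and 6. Means were 26.8 ± 20.4 in papilla, 14.6 ± 6.23 in sheath-labelled, 10.7 ± 1.76 in interfollicular-labelled libraries and 7.61 ± 2.43 in dermal stem cells (SD, n = 3 each), and no pair of populations passed the test. Papilla minus dermal stem cells was 1.18 on the log2 scale (95% interval -0.25 to 2.62, adjusted p = 0.288). Papilla replicate 4 decided the outcome. Without it, papilla exceeded dermal stem cells by 2.24 (adjusted p = 0.00236), sheath-labelled libraries by 1.42 (adjusted p = 0.00503) and interfollicular-labelled libraries by 1.76 (adjusted p = 0.00209). With papilla replicate 4 alone, papilla was lower than the sheath-labelled libraries by a log2 difference of -1.73 (adjusted p = 0.0119) and than the interfollicular-labelled ones by -1.39 (adjusted p = 0.0355), the single library being assumed to vary like the other groups. Summed keratinocyte markers stood at 3349, 3379 and 1142 FPKM and summed endothelial markers (10 genes) at 102, 159 and 15.4 in papilla 1, 2 and 4, both lowest where Edn1 was lowest. So were the summed markers of melanocytes, pericytes, Schwann cells and immune cells, but not those of fibroblasts or sheath, and papilla markers were highest there. Outside the papilla, sheath-labelled 5 had an endothelial sum of 16.8 FPKM with Edn1 at 21.1. The part of these markers in the split was not tested.

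Kitl, the ligand of Kit, was lowest in dermal stem cells and highest in the interfollicular-labelled libraries. It stood at 9.80, 8.07 and 4.47 FPKM in dermal stem cells 1, 2 and 4, at 10.1, 20.3 and 8.08 in papilla 1, 2 and 4, at 16.4, 16.3 and 9.23 in sheath-labelled 4, 5 and L1, and at 40.3, 23.1 and 17.8 in interfollicular-labelled 1, 2 and 6. All interfollicular-labelled libraries lay above all dermal stem cell and sheath-labelled libraries, and papilla replicate 2 overlapped them. Means were 7.45 ± 2.72, 12.8 ± 6.56, 14.0 ± 4.09 and 27.1 ± 11.8 in that order (SD, n = 3 each). Dermal stem cells minus interfollicular-labelled was -1.71 on the log2 scale (SE 0.39, adjusted p = 0.0048). Papilla minus interfollicular-labelled was -1.04 (SE 0.39, adjusted p = 0.0486), so close to the threshold that the call was lost in 16 of 22 alternatives, among them median-of-ratios scaling (-0.68, adjusted p = 0.167) and leaving out papilla replicate 1 (-0.93, adjusted p = 0.127) or 4 (-0.79, adjusted p = 0.151) or interfollicular-labelled replicate 1 (-0.72, adjusted p = 0.193). Sheath-labelled minus interfollicular-labelled was -0.87 (adjusted p = 0.311) and dermal stem cells minus sheath-labelled was -0.84 (adjusted p = 0.102), neither called. With the replicate block, dermal stem cells minus sheath-labelled was -1.63 and called (adjusted p = 0.0455). Those populations share only number 4, and sheath-labelled 5 and L1 then add nothing. Papilla and dermal stem cells did not differ beyond their spread (0.67, 95% interval -0.19 to 1.52, adjusted p = 0.313). The summed keratinocyte markers were highest in papilla 1 and 2 (3349 and 3379 FPKM) and at most 1636 in the interfollicular-labelled libraries, where Kitl was highest, while Trp63 of that list was at 75.8 FPKM or more in all sheath-labelled and interfollicular-labelled libraries and at 24.8 or less in all others. The part of keratinocyte RNA in the Kitl differences was not tested.

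**Figure D3:**
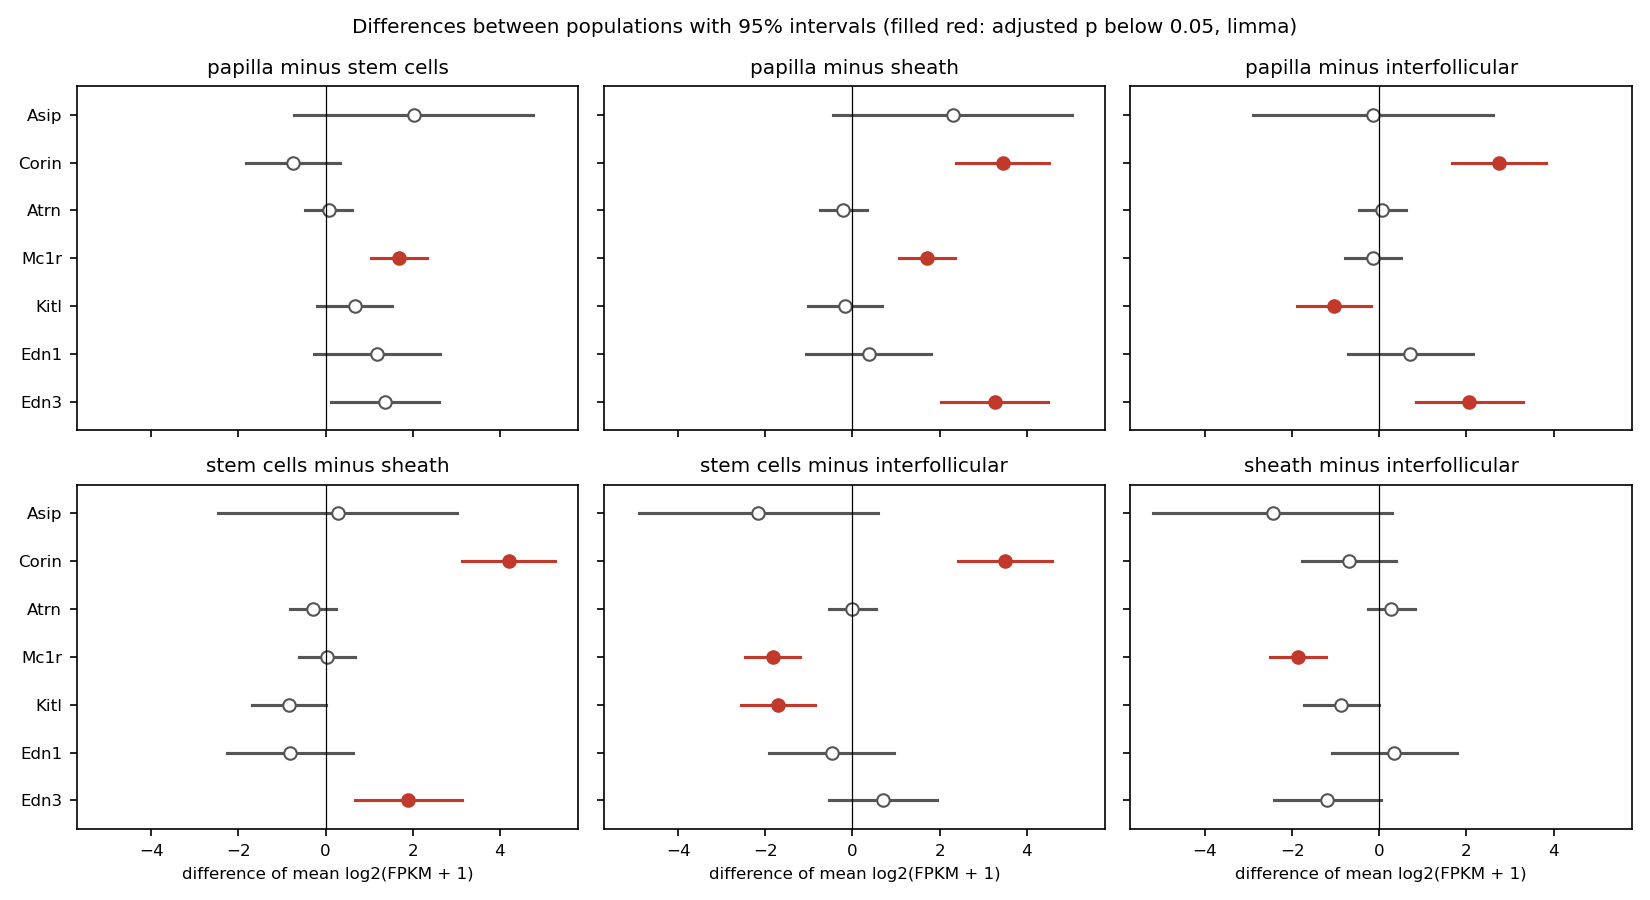
Log2 differences of the 7 members in the 6 comparisons of populations, on the log2(FPKM + 1) scale, with 95% intervals and filled points where the difference was called. Corin has the largest called differences, up to 4.20, and the Asip intervals are the widest and cross 0 in all 6.

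Further genes of the agouti and melanocortin pathway were 15 in the list, of which 7 passed the low-value filter of at least 1 FPKM in at least 3 libraries. Pomc, Agrp, Mc2r, Mc3r, Mc4r, Mrap, Mrap2 and Pcsk1 did not. Not all of these were near 0: Mc2r stood at 0.0345, 2.55 and 8.63 FPKM in papilla 1, 2 and 4 and at most 0.545 elsewhere. It was not tested because fewer than 3 libraries reached 1 FPKM. Of the 7, 4 were called higher and 1 lower in papilla than in the sheath-labelled libraries, beside 16.4% and 33.4% of all genes. The same counts held against the interfollicular-labelled libraries, beside 13.7% and 28.6%. Dermal stem cells had 3 higher and 1 lower against the sheath-labelled libraries, beside 19.6% and 24.3% of all genes. Against the interfollicular-labelled libraries they had 3 higher and 2 lower, beside 17.9% and 19.7%. In papilla against dermal stem cells limma called 0 of 7, with 3 at an unadjusted p under 0.05, beside 2.31% of all genes higher and 6.38% lower. Between the sheath-labelled and interfollicular-labelled libraries it called 0 of 7, with 0 at that level, beside 0.939% higher and 1.32% lower. Cpe, the carboxypeptidase that trims peptide hormones, averaged 113 ± 8.25 FPKM in dermal stem cells, 62.9 ± 24.1 in papilla, 17.1 ± 2.59 in interfollicular-labelled and 11.5 ± 7.28 in sheath-labelled libraries (SD, n = 3 each), the same order as Corin. Pcsk2, the hormone convertase that cleaves the melanocortin precursor, ran the other way, with 3.07 ± 0.647 and 2.24 ± 0.587 FPKM in sheath-labelled and interfollicular-labelled libraries and at most 0.422 in any papilla or dermal stem cell library. Gnas, which encodes the stimulatory G protein subunit that couples melanocortin receptors to cyclic AMP, averaged 681, 576, 342 and 256 FPKM in dermal stem cells, papilla, sheath-labelled and interfollicular-labelled libraries, and dermal stem cells exceeded the interfollicular-labelled by 1.39 (SE 0.25, adjusted p = 0.00102).

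Mc5r, another melanocortin receptor, had its highest mean in the papilla, where Mc1r was also high, at 6.83, 10.9 and 31.0 FPKM in replicates 1, 2 and 4. It stood at 1.38, 0.478 and 9.61 in dermal stem cells 1, 2 and 4, and between 0.315 and 3.96 in the other 6 libraries. Papilla exceeded the sheath-labelled libraries by 2.94 (SE 0.67, adjusted p = 0.00333) and the interfollicular-labelled by 1.91 (SE 0.67, adjusted p = 0.0373). Unlike Mc1r, which was level over the papilla libraries, Mc5r was highest in papilla replicate 4, where melanocyte markers summed least. Mgrn1 (mahogunin), the ubiquitin ligase whose loss darkens agouti fur, stood at 14.8 to 17.5 FPKM in dermal stem cells and 7.67 to 11.2 in sheath-labelled libraries, a difference of 0.67 (SE 0.21, adjusted p = 0.0222). Atrnl1, the paralog of attractin, was highest in papilla at 12.03, 10.7 and 17.0 FPKM and was called higher there than in the sheath-labelled (1.02, SE 0.28, adjusted p = 0.00982) and interfollicular-labelled libraries (1.11, SE 0.28, adjusted p = 0.00784), whereas Atrn itself was not called in any comparison.

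The endothelin pathway list held 8 genes, of which 6 were tested and 4 were called in some pairwise comparison; over all genes tested that share was 67.3%. In papilla against dermal stem cells 3 of 6 were called lower (Ednrb, Ednra and Mme), beside 6.38% of all genes. There the log2 difference of Edn3 was positive and not called (1.36). Ednrb, the receptor of Edn3, stood at 338, 364 and 256 FPKM in dermal stem cells 1, 2 and 4 and at 72.6, 53.4 and 38.2 in papilla 1, 2 and 4. It stood at 6.31 to 9.03 in sheath-labelled and 6.20 to 26.9 in interfollicular-labelled libraries. Every dermal stem cell library lay above every papilla library and every papilla library above the rest. The log2 difference of papilla from dermal stem cells was -2.56 (SE 0.40, adjusted p = 0.00245), and dermal stem cells exceeded the sheath-labelled by 5.15 (SE 0.40, adjusted p = 2.12e-06) and the interfollicular-labelled libraries by 4.49 (SE 0.40, adjusted p = 5.26e-06). Between papilla and dermal stem cells the melanocyte markers had the opposite order, with a sum of at most 110 FPKM in dermal stem cells and at least 249 in papilla. Within papilla, dermal stem cells and interfollicular-labelled libraries, Ednrb and the melanocyte marker sum had the same order over the 3 libraries (in papilla 1, 2 and 4, sums of 1008, 703 and 249 FPKM). Within the sheath-labelled libraries the order was reversed, with Ednrb at 6.31, 8.72 and 9.03 and sums of 26.0, 18.9 and 15.4 FPKM in 4, 5 and L1. The part of melanocyte markers in the Ednrb levels was not tested.

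Ednra, the endothelin receptor that prefers Edn1 and is known from smooth muscle, was likewise highest in dermal stem cells at 60.9, 37.2 and 64.3 FPKM, with 3.05, 8.03 and 11.8 in papilla 1, 2 and 4 and at most 3.71 in the other libraries. Papilla minus dermal stem cells was -2.79 (SE 0.40, adjusted p = 0.00128). Mme (neprilysin), a surface peptidase that degrades endothelins, had a mean of 17.4 ± 8.38 FPKM in dermal stem cells against 2.54 ± 0.195 in papilla (SD, n = 3; log2 difference of papilla -2.28, SE 0.31, adjusted p = 0.000878). Acta2, the smooth muscle actin gene, had a mean of 872 FPKM in dermal stem cells against 45.4 in papilla, so Ednra, Ednrb and Mme were high in the same libraries as the contractile marker; its part was not tested. Edn2, the remaining endothelin, had its highest mean in the sheath-labelled libraries (11.9, 22.6 and 12.1 FPKM in 4, 5 and L1, against at most 7.48 elsewhere), and dermal stem cells were lower by a log2 difference of -2.21 (SE 0.51, adjusted p = 0.00405). Ece1, which cleaves big endothelins to the active peptides, averaged 24.6 to 30.2 FPKM in the 4 populations and was not called in any comparison. Over the whole list, 3 genes were called higher and 1 lower in papilla against sheath-labelled libraries, beside 16.4% and 33.4% of all genes. Against interfollicular-labelled libraries 2 were higher in papilla, beside 13.7%. In dermal stem cells 3 were higher and 1 lower against sheath-labelled libraries, beside 19.6% and 24.3%, and 3 higher against interfollicular-labelled libraries, beside 17.9%.

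**Figure D4:**
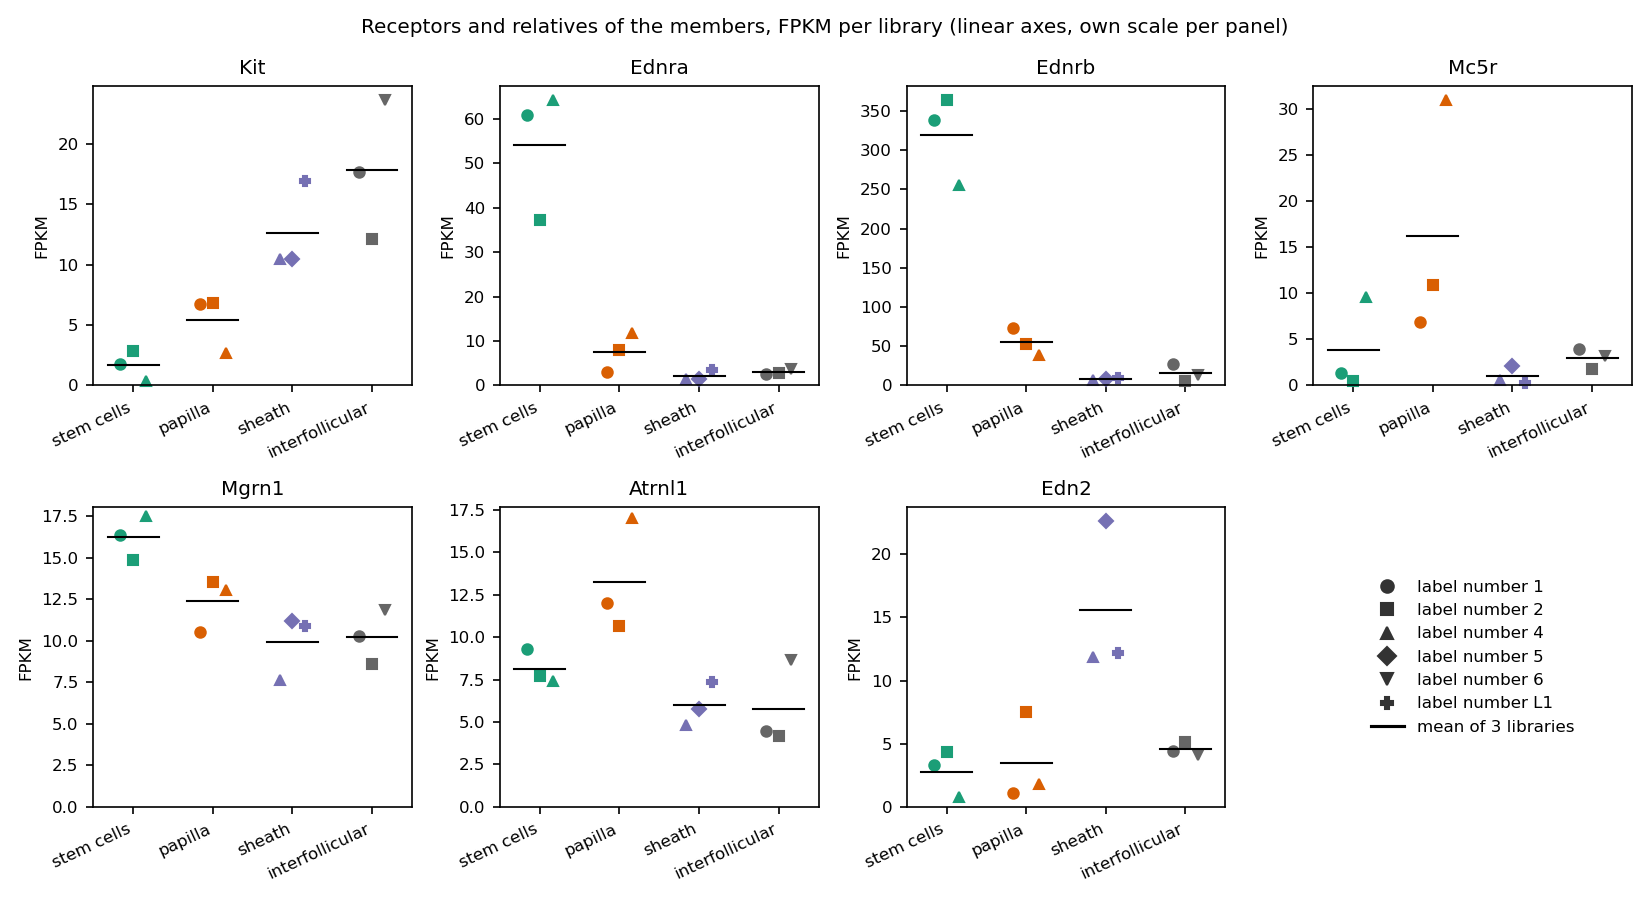
FPKM of the receptors and pathway genes Kit, Ednra, Ednrb, Mc5r, Mgrn1, Atrnl1 and Edn2 in each library on linear axes that start at 0, 1 panel per gene with its own scale, grouped by population, with points shaped by replicate number and bars for the mean of 3 libraries. Ednrb stands at 256 to 364 in dermal stem cells and at 38.2 to 72.6 in papilla, while Kit is lowest in dermal stem cells (0.394 to 2.88).

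Kit, the receptor of Kitl, was lowest where Kitl was lowest. It stood at 1.74, 2.88 and 0.394 FPKM in dermal stem cells 1, 2 and 4, at 6.76, 6.78 and 2.69 in papilla 1, 2 and 4, at 10.4, 10.5 and 16.9 in sheath-labelled 4, 5 and L1, and at 17.7, 12.1 and 23.6 in interfollicular-labelled 1, 2 and 6. The sheath-labelled and interfollicular-labelled libraries all lay above the papilla and dermal stem cell libraries. Dermal stem cells differed by -2.89 (SE 0.41, adjusted p = 0.000212) from the interfollicular-labelled and -2.44 (SE 0.41, adjusted p = 0.000547) from the sheath-labelled libraries, and papilla by -1.59 (SE 0.41, adjusted p = 0.00884) and -1.13 (SE 0.41, adjusted p = 0.037). Papilla minus dermal stem cells was 1.30 (SE 0.41, adjusted p = 0.0715). The sheath-labelled libraries had Kit at 10.4 FPKM or more with melanocyte markers summing to 26.0 FPKM or less.

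All 9 genes of the Kit pathway list were tested; 8 were called in some pairwise comparison, beside 67.3% of all genes, and 6 passed the F test, beside 56.8% of all genes. In papilla 3 were called higher and 2 lower against the sheath-labelled libraries, beside 16.4% and 33.4% of all genes. Against the interfollicular-labelled libraries 2 were higher and 1 lower in papilla, beside 13.7% and 28.6%. In dermal stem cells 3 were called higher and 3 lower against the sheath-labelled libraries, beside 19.6% and 24.3%. Against the interfollicular-labelled libraries 4 were higher and 1 lower in dermal stem cells, beside 17.9% and 19.7%. Gab2, a docking protein downstream of Kit, had a mean of 7.32 ± 1.73 FPKM in dermal stem cells against 0.972 ± 0.818 in sheath-labelled libraries (log2 difference 2.14, SE 0.37, adjusted p = 0.00059). Mmp9, a secreted protease that releases soluble Kitl, averaged 2.71 ± 1.66 in dermal stem cells and 0.0677 ± 0.0723 in interfollicular-labelled libraries (1.69, SE 0.34, adjusted p = 0.00217). Pik3r1, the regulatory subunit of phosphoinositide 3-kinase, was highest in papilla (18.2, 25.8 and 47.2 FPKM), 1.39 above the sheath-labelled libraries (SE 0.33, adjusted p = 0.00443).

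Of 16 other ligands that act on melanocytes, 14 were tested and 12 were called in some pairwise comparison, beside 67.3% of all genes. In papilla against dermal stem cells 2 were called lower, beside 6.38% of all genes. In papilla 8 were higher and 1 lower against the sheath-labelled libraries, beside 16.4% and 33.4%, and 6 higher and 1 lower against the interfollicular-labelled, beside 13.7% and 28.6%. Dermal stem cells had 7 higher against the sheath-labelled libraries, beside 19.6%, and 6 higher and 1 lower against the interfollicular-labelled, beside 17.9% and 19.7%. In sheath-labelled against interfollicular-labelled libraries 1 was higher and 2 lower, beside 0.939% and 1.32%. Cxcl12, a chemokine that attracts melanoblasts, had a mean of 312 ± 100.1 FPKM in dermal stem cells against 82.9 ± 11.3 in papilla (log2 difference of papilla -1.87, SE 0.27, adjusted p = 0.00146). Fgf7, a growth factor of the papilla, stood at 51.4, 76.1 and 335 FPKM in papilla 1, 2 and 4, with the highest value in replicate 4 as for Edn3 and Asip, and exceeded the sheath-labelled libraries by 4.13 (SE 0.76, adjusted p = 0.000794). Wnt10b, a Wnt ligand of follicle and epidermal epithelium, stood at 19.4, 18.2 and 16.3 FPKM in the interfollicular-labelled libraries against at most 4.57 elsewhere, with log2 differences of -3.05 for papilla (adjusted p = 0.000373), -3.20 for dermal stem cells (adjusted p = 0.000274) and -2.48 for sheath-labelled libraries (adjusted p = 0.0175).

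For each member, the 3 genes with the most similar profile over the 12 libraries were taken by Pearson's r of log2(FPKM + 1), among tested genes averaging at least 5 FPKM in some population. These r values describe 12 libraries from 4 populations, which share the differences between populations and in marker content. Corin was closest to Myof (r = 0.986), Clmp (0.983) and Lpl (0.981), and Lpl, lipoprotein lipase, had a mean of 169 FPKM in dermal stem cells against 5.66 in sheath-labelled libraries. Edn3 was closest to Fgf7 (0.978), Fgf10 (0.976) and Enpp2 (0.966), and Fgf10, a papilla growth factor, averaged 53.4 FPKM in papilla and 14.0 in dermal stem cells. Mc1r was closest to Slc45a2 (0.974), a melanosome transporter, Mcoln3 (0.941) and Syt4 (0.934), with Slc45a2 at 9.18 FPKM in papilla and 12.2 in interfollicular-labelled libraries. Kitl was closest to Rpp38 (0.940), Foxq1 (0.918) and Dbi (0.913), Edn1 to Pon2 (0.911), Npepps (0.892) and Sult2b1 (0.883), Atrn to Smc5 (0.873), Taok1 (0.873) and Akap11 (0.869), and Asip to Trps1 (0.870), Jtb (0.862) and Sfr1 (0.842). Asip thus had the lowest closest r of the members, and Corin the highest.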

How the data were processed

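Messenger RNA of 12 sorted libraries was captured on oligo(dT) beads and made into SOLiD libraries, per the labels' protocols. The deposited values are FPKM, in 1 table of 24692 gene entries; TopHat2 2.0.13, SAMtools, Cufflinks 2.2.1 and the mm10 build are named per the submitters' processing notes, and the annotation is not given in the sources used here. Counts were not used here, so the depth is unknown and counting error could not be given; FPKM summed to 181683 to 262695 per library, with 10711 to 11810 genes at 1 FPKM or more. A value of 0 can be a failed estimate.

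The log2(FPKM + 1) values were fitted in limma 3.58.1 (R 4.3.3; 4 population means, mean-variance trend, 8 residual degrees of freedom, prior degrees of freedom 4.62), for the 12774 genes that reached 1 FPKM in 3 or more libraries. All tests were two-sided, with Benjamini-Hochberg adjustment within each comparison and a threshold of 0.05. The fit was tested on simulated data. Replicate numbers were taken as pairing papilla and dermal stem cells, because the deviations of same-numbered libraries from their population means correlated at 0.306, 0.241 and 0.389. Papilla and dermal stem cell libraries with different numbers correlated at -0.333 to 0.125. Deviations from a population mean sum to 0, so positive same-number values push these toward negative ones, and they are no separate evidence of pairing. Without a shared number, sheath-labelled L1 correlated at 0.445 with interfollicular-labelled 6 and at 0.294 with dermal stem cells 1. Correlations of that size thus also occurred without a shared number. The pairing is read from the data and no label states it. Same-numbered libraries of other populations correlated at -0.191 to 0.139, and their numbers were not taken as pairing them. Named pathway genes were the 4 with the largest differences per list, plus Kit, Ednra, Ednrb, Mgrn1 and Atrnl1. Of the genes so chosen, 1 is not reported here. Edn2, Fgf7, Ece1, Slc45a2, Lpl and Fgf10 are described further with their values in view. The members and gene lists were chosen with earlier results of these data known. Promoter sequences and gene positions come from RefSeq, GRCm38.p6.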

Additional observations from a re-analysis of the deposited data

How the results depend on the processing

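Of 13 called differences of the members, 10 kept direction and call in every alternative run (pseudocount, filter, scaling, trend, block, fewer populations and leaving out libraries). The exceptions were Kitl in papilla against interfollicular-labelled libraries (16 alternatives, adjusted p up to 0.193) and Edn3 in dermal stem cells against sheath-labelled libraries (2). Mc1r in sheath-labelled against interfollicular-labelled libraries was a further exception, lost with the replicate block (adjusted p = 0.215). The block cannot decide that call, because sheath-labelled and interfollicular-labelled libraries share no replicate number. Of 29 uncalled differences, 10 were called in some alternative. In papilla against dermal stem cells 1 member was called, 3 with the replicate block, 3 with that block in these populations alone, 2 without papilla replicates 1 and 2 together (a setting chosen after seeing the data), and 1 to 2 when leaving out 1 library at a time, 2 without papilla replicate 4. The shares of all genes called with the block in papilla against dermal stem cells are not given here. In dermal stem cells against sheath-labelled libraries 2 members were called, and 1 to 3 when leaving out 1 library. In sheath-labelled against interfollicular-labelled libraries limma called 1, and 0 with the replicate block (4 at an unadjusted p under 0.05). Reversed were the uncalled differences of Edn1 without papilla replicates 1 and 2: -1.73 against sheath-labelled and -1.39 against interfollicular-labelled libraries. With the block, which does not pair these populations, Asip was called lower than in interfollicular-labelled libraries in dermal stem cells (-4.14, adjusted p = 0.00134) and papilla (-2.12, adjusted p = 0.0217), and without papilla replicate 1 it was called higher in papilla than in sheath-labelled libraries (3.54, adjusted p = 0.0368). With the block, Kitl was called lower in dermal stem cells than in sheath-labelled libraries (-1.63, adjusted p = 0.0455). Without papilla replicate 4, Edn1 was also called lower in dermal stem cells than in sheath-labelled libraries (-0.81, adjusted p = 0.0431). Over all genes, calls in papilla against dermal stem cells numbered 1110, 663 with these populations alone, and 465, 570 and 657 without dermal stem cell replicate 1, 2 or 4; with the block, 3806 in place of 6365 were called in papilla and 3223 in place of 5607 in dermal stem cells against sheath-labelled libraries. Sheath-labelled against interfollicular-labelled libraries gave 289 calls, 7 with the block, 185, 98 and 162 without sheath-labelled replicate 4, 5 or L1, and 101 and 136 without interfollicular-labelled replicate 1 or 2. Under median-of-ratios scaling the median over all genes went from -0.25 to -0.07 in papilla against dermal stem cells and from -0.36 to 0.00 against sheath-labelled libraries; of the members' calls it ended only that of Kitl in papilla. The causes were not tested. With no counts, the depth cannot be used to limit low values such as those of Mc1r.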
